A study of Mus musculus with 28 samples.

Results

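The genes of the major histocompatibility complex (MHC) and of the antigen presentation machinery around it were followed in mouse ventricular myocardium. The members were every row of the count table whose gene name begins with H2-, the mouse MHC, together with B2m, Cd74, Ciita, Nlrc5, Tap1, Tap2 and Tapbp. They numbered 51 of 45513 rows. Of these, 34 belong to the class I side, 12 to the class II side, and 5 are other H2-named rows (H2-K2, H2-Ke6, H2-Pa, H2-Pb and H2-M6-ps). A filter on low counts was passed by 38 members: 24 of class I, 11 of class II and 3 of the others. The other 13 had at most 18 reads in any library, and most of them were H2-M10 genes and other M-region genes.

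Ventricular RNA of 28 adult male C57BL/6 mice was sequenced, 1 library per mouse. At 6 weeks of age the mice had a two-stage 5/6 nephrectomy, which removes most renal tissue and causes chronic kidney disease (CKD), or a sham operation. On day 7 they received by mouth 1 dose of Oxalobacter formigenes (Oxf), a gut bacterium that degrades oxalate, or its culture medium alone (vehicle). All groups ate a diet with 1% hydroxyproline, from which the body makes oxalate, and 0.5% calcium. There were 10 sham mice and 6 CKD mice on vehicle, called sham-vehicle and CKD-vehicle below, and 5 sham mice and 7 CKD mice given the bacterium, called sham-Oxf and CKD-Oxf. The series text plans 10 animals per group, but the count table holds only these 28 libraries, and all of them were analysed. The question put to the data was whether class I and class II genes differed between the 4 groups.

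Class I molecules are present on nearly all nucleated cells. A heavy chain (H2-K1 and H2-D1 in this strain) pairs with beta-2-microglobulin, encoded by B2m, and carries peptides of the cell's own proteins, which Tap1 and Tap2 pump into the endoplasmic reticulum and tapasin (Tapbp) helps to load. NLRC5 is the transactivator of class I genes. H2-Aa, H2-Ab1 and H2-Eb1 encode class II chains, and a further class II row, H2-Ea-ps, is annotated as a polymorphic pseudogene. Class II molecules are made mainly by B cells, dendritic cells and macrophages and carry peptides from taken-up material. The invariant chain Cd74 escorts them, H2-DM (H2-DMa, H2-DMb1, H2-DMb2) loads them, H2-O (H2-Oa, H2-Ob) restrains H2-DM, and CIITA switches their genes on. Both transactivators act through a promoter module of X and Y boxes, and class I promoters can also carry an interferon response element (ISRE) and a kappa B site.

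Of the 51 members, 47 lie on chromosome 17 in GENCODE M21 (build GRCm38, equivalent to mm10). H2-K1 is at chr17:33996017-34000347 on the minus strand, H2-Ab1 at chr17:34257689-34269419, H2-D1 at chr17:35262730-35267499 and H2-Q7 at chr17:35439155-35443773, all 3 on the plus strand. B2m is at chr2:122147686-122153083, Nlrc5 at chr8:94434356-94527272 and Ciita at chr16:10480059-10528418. The 200 bases before the transcription start are shown for 6 genes, because class I and class II genes separated across the mice in the results that follow. They are RefSeq sequences of GRCm38.p6, written 5' to 3' on the gene's strand, with the Y box (CTGATTGG or its reverse complement), the ISRE core (GAAANNGAA) and the kappa B core (GGGATTCCC) in capitals:
H2-K1: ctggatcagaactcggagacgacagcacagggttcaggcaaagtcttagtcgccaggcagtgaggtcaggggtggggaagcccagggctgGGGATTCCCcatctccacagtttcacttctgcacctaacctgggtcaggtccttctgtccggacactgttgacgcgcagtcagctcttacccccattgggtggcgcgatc
H2-D1: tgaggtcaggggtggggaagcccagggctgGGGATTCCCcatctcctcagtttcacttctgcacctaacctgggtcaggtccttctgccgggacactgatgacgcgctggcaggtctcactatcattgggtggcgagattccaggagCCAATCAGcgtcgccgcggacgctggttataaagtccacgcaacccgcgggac
H2-Q7: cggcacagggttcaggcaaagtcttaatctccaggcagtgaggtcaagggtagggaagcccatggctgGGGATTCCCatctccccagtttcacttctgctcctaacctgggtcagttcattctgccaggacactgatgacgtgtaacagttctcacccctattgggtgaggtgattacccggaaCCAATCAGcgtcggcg
B2m: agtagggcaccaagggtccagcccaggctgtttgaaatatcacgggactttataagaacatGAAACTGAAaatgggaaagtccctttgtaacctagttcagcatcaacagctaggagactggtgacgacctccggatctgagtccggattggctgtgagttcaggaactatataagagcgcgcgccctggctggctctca
H2-Aa: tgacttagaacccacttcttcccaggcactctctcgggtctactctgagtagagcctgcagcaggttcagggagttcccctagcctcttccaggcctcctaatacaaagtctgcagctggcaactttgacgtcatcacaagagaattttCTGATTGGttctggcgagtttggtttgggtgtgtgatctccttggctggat
H2-Eb1: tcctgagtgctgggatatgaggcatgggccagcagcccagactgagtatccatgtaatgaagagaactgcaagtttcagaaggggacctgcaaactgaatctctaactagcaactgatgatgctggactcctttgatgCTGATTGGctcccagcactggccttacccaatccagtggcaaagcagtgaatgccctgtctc
In the 250 bases before the start, searched on both strands, the Y box letters were found in 13 of the 25 class I genes and 4 of the 8 class II genes with a RefSeq promoter entry, and in 3.83% of all 32851 promoters. The tested class I genes among them were Tap1, H2-D1, H2-Q6, H2-Q7, H2-T23 and H2-M9. The other class I matches were M-region genes that failed the count filter (H2-M1, H2-M11, H2-M10.1, H2-M10.3, H2-M10.4, H2-M10.5 and H2-M10.6). The shorter CCAAT core ATTGG, which the Y box contains, was found in 22 of 25 and 8 of 8, against 33.8% of all promoters. The ISRE letters were found in 3 class I genes (B2m, H2-T22 and H2-T23) and 0 class II genes, against 7.13% of all. Only these letters and their reverse complement were counted. The printed stretches of H2-K1, H2-D1 and H2-Q7 hold tttcacttc, a related form that the search missed. A gene without a match may therefore still carry an interferon response element. The kappa B letters were found in H2-K1, H2-D1, H2-Q6 and H2-Q7 and in 0 class II genes, against 0.301% of all promoters (99). A match describes letters in the window and shows no binding.

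Library totals ran from 19.8 M to 65.4 M counts (M, 1e6 counts). The library of sham-Oxf replicate 1 stood apart: it had counts for 15879 genes, against 27128 to 33995 in the other libraries, and for 28 members, with H2-DMa, H2-DMb2 and H2-M3 at 0. The 7SL RNA copies Rn7s1 and Rn7s2 took from 1.83% to 21% of the counts. Ventricular cardiomyocyte markers (6 of 6 detected) summed to 14632 to 41538 CPM (counts scaled to 1e6 per library after TMM factors, which adjust for composition). B cell markers (Cd79a, Cd79b, Ms4a1, Pax5, Ighm) summed to 3.99 to 771 CPM, with the 2 highest sums in sham-Oxf replicate 2 (771) and CKD-Oxf replicate 6 (536). Macrophage markers (9 genes) spread far less, from 117 to 279 CPM. A circadian score was the mean log2 CPM of 8 evening clock genes, such as Dbp, minus that of 4 morning ones, such as Arntl. Its group medians were higher with Oxf (4.52 in sham-Oxf, 3.85 in CKD-Oxf) than with vehicle (2.17 in sham-vehicle, 0.75 in CKD-vehicle).

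Per kilobase of exon, the light chain and the classical heavy chains were the most abundant members. The mean level was 77.5 CPM per kb for B2m, 59.4 for H2-D1 and 33.7 for H2-K1, and Cd74 reached 39.5, between the 2 heavy chains. The class II chains H2-Eb1 (11.6 CPM per kb) and H2-Ab1 (9.12) were close to H2-Q4 (12.5), H2-T23 (11.5) and H2-Q7 (11.4) of class Ib. Among the transactivators Nlrc5 stood at 4.14 CPM per kb and Ciita at 1.19. H2-Oa, H2-Eb2 and H2-M9 were near the lower end, at 0.22, 0.087 and 0.086 CPM per kb.

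**Figure D1:**
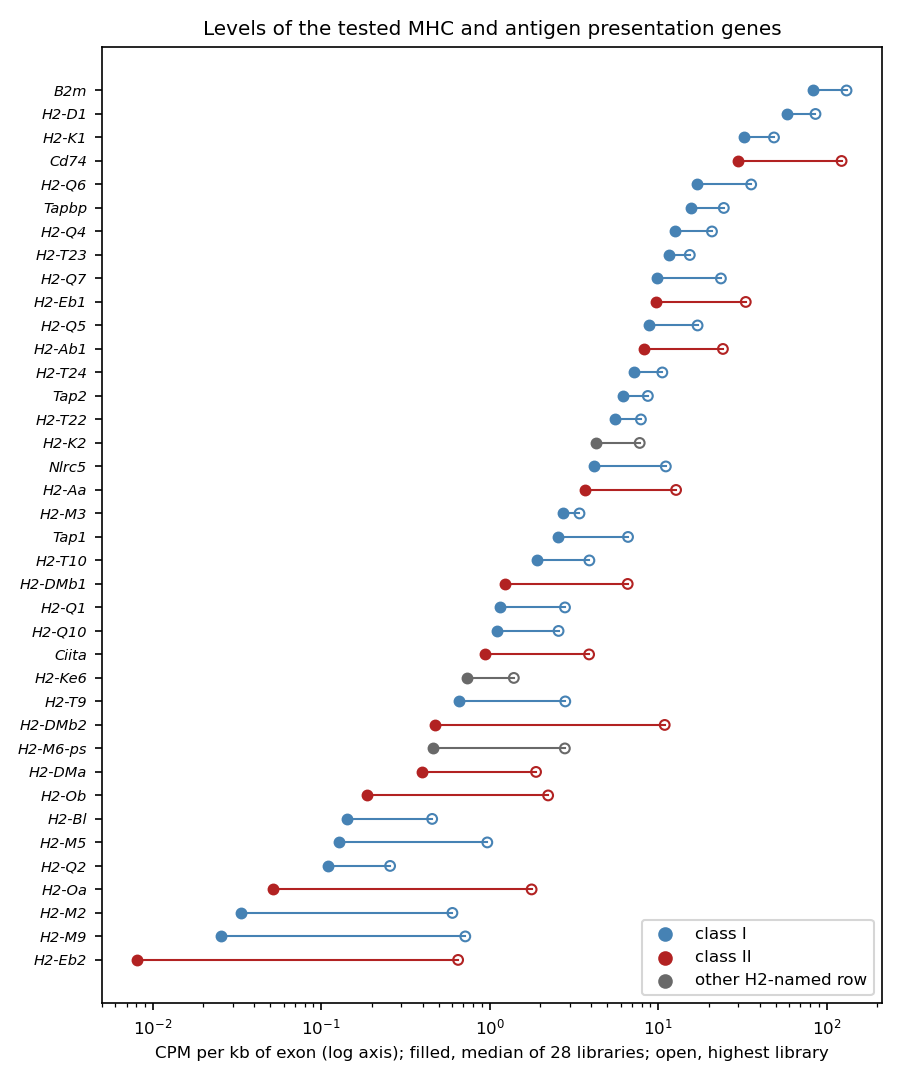
Levels of the 38 tested members in CPM per kb of exon on a log axis, with the median of 28 libraries as a filled point and the highest library as an open point, joined by a line. The highest library was 1.25 to 28 times the median in class I (median gene 2.08) and 2.95 to 80.2 times in class II (4.74), so the classes overlap, and the class I genes H2-M9 and H2-M2 have longer lines than most class II genes. The 28 and the 80.2 belong to H2-M9 and H2-Eb2, whose medians were 1.5 and 1 reads.

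The classical class I heavy chains H2-K1 and H2-D1 overlapped across all 4 groups. H2-K1 had a lowest, median and highest value of 68.6, 103 and 142 CPM in sham-vehicle, 78, 95 and 107 in CKD-vehicle and 87.1, 93.8 and 143 in CKD-Oxf, and its 5 sham-Oxf values were 65.7, 104, 103, 80.2 and 118. H2-D1 medians were 152 and 145 CPM in sham-vehicle and CKD-vehicle, and 152 and 151 CPM in sham-Oxf and CKD-Oxf. B2m medians were lower with Oxf (46.4 CPM in sham-Oxf, 50.3 in CKD-Oxf) than with vehicle (75.4 in sham-vehicle, 61.8 in CKD-vehicle). Its sham-Oxf values of 23.8, 85.1, 75.9, 44.3 and 46.4 CPM lay on both sides of the lowest sham-vehicle value of 62.0. Its lowest value was in sham-Oxf replicate 1. The transactivator Nlrc5 spread widely within every group but sham-Oxf. It ran from 11 to 53.9 CPM in sham-vehicle (median 27.4), from 7.69 to 94.5 in CKD-vehicle (39.4) and from 9.05 to 61.3 in CKD-Oxf (35.7), with sham-Oxf at 42.3, 44.6, 30.4, 25.5 and 40.9. The highest value, 94.5, was CKD-vehicle replicate 4, which was also highest for both transporter genes, with Tap1 at 36.3 CPM and Tap2 at 32.9. Tapbp had medians of 58.3 and 61.3 CPM in sham-vehicle and CKD-vehicle and 56.6 and 53.1 in sham-Oxf and CKD-Oxf.

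Class II genes had no common order of group medians, but their highest values lay in 1 mouse of each Oxf group. CKD-Oxf had the lowest median of the 4 groups for Cd74, H2-Aa, H2-Ab1, H2-Eb1, H2-DMa, H2-DMb1 and Ciita. Sham-Oxf had the highest median for H2-Ab1, H2-DMb1 and Ciita. Cd74 had a lowest, median and highest value of 33.5, 58.8 and 128 CPM in sham-vehicle, 33.3, 49.3 and 87.6 in CKD-vehicle and 26.1, 37.8 and 181 in CKD-Oxf, and its sham-Oxf values were 39.2, 206, 96.0, 33.1 and 36.0. The 2 highest were sham-Oxf replicate 2 and CKD-Oxf replicate 6, and the groups overlapped otherwise. H2-Ab1, the beta chain of I-A, had medians of 23.6, 22.8 and 15.2 CPM in sham-vehicle, CKD-vehicle and CKD-Oxf and sham-Oxf values of 30.6, 62.3, 31.8, 11.1 and 12.5. Ciita ran from 4.75 to 16.9 CPM in sham-vehicle, from 3.05 to 14.9 in CKD-vehicle and from 4.0 to 30.7 in CKD-Oxf, and was 21.3, 37.2, 8.89, 8.35 and 9.73 in sham-Oxf. H2-DMb2, chosen after its values were seen, had 19.1 CPM in sham-Oxf replicate 2 and 10.8 in CKD-Oxf replicate 6, against at most 5.63 in sham-vehicle and 4.49 in CKD-vehicle. In these bulk samples more cells of a type and more RNA per cell cannot be told apart.

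**Figure D2:**
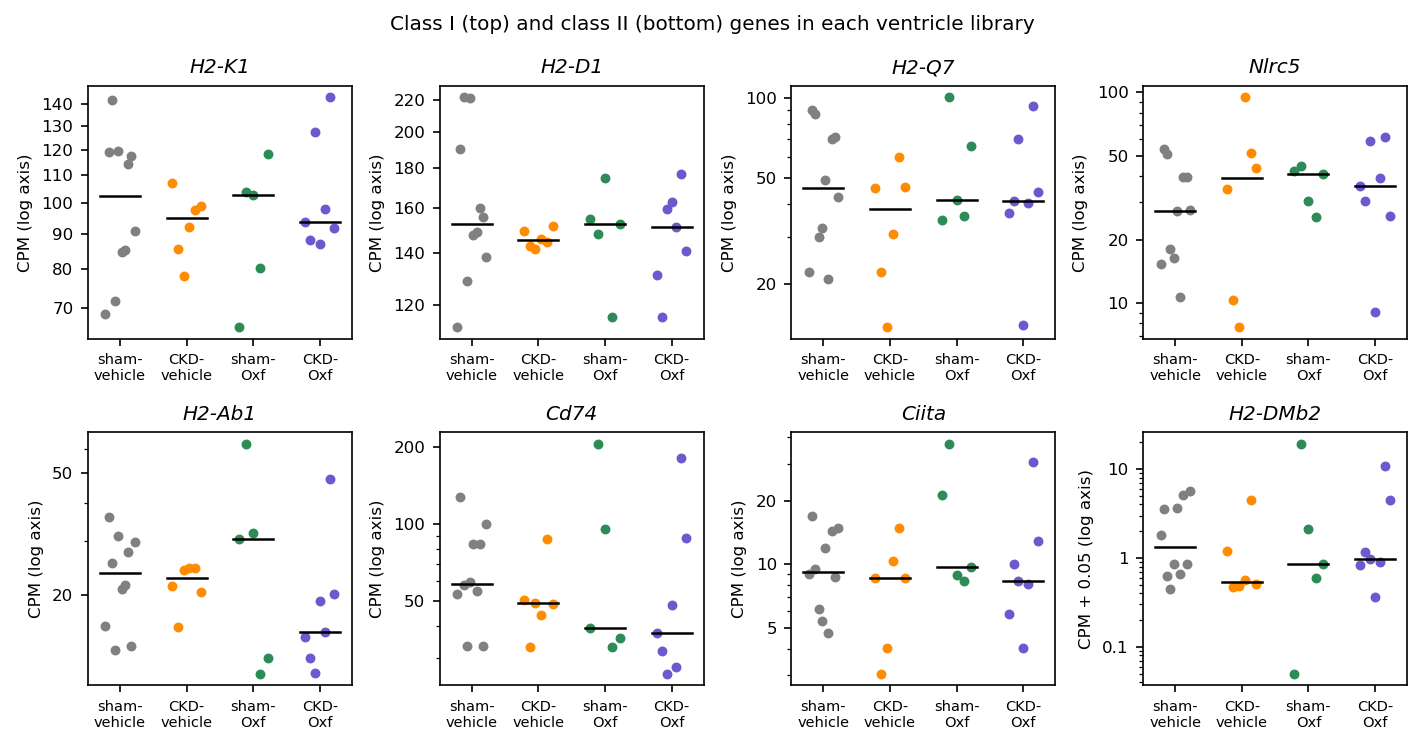
CPM of 4 class I genes (top) and 4 class II genes (bottom) in every library, on log axes, by group, with points for mice and a line at the median (0.05 was added to H2-DMb2). The H2-K1 values lie between 65.7 and 143, while Cd74 reaches 206 in 1 sham-Oxf mouse and 181 in 1 CKD-Oxf mouse.

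A score per library (the mean over a class of log2 CPM minus each gene's sham-vehicle mean) shows the same. The class I score had group medians of 0.03 and -0.01 with vehicle and 0.02 and -0.02 with Oxf, sham before CKD in each pair. In that order (sham and CKD on vehicle, then sham and CKD with Oxf) the class II medians were -0.19, -0.52, -0.68 and -0.79, and the class II means were 0.00, -0.33, 0.03 and -0.23, so the mean and the median of sham-Oxf differ in sign. The spread within groups was 0.36 (pooled SD) for class I and 1.02 for class II, so the differences between class II group medians are smaller than the spread between mice.

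In CKD-vehicle against sham-vehicle, 0 of the 38 tested members passed adjusted p 0.05 in edgeR's quasi-likelihood test, with Benjamini-Hochberg adjustment over 24273 genes, where 0.00824% of all genes passed (2 genes). At an unadjusted p under 0.05 there were also 0 members, against 4.46% of all genes. The median log2 fold change was -0.09 over the 24 class I genes, -0.39 over the 11 class II genes and -0.03 over all genes. All 11 class II genes had a value below 0, against 44.4% of all genes above 0, and 9 of 24 class I genes were above 0. H2-K1 had a log2 fold change of -0.12 ± 0.15 (SE), H2-D1 -0.15 ± 0.13, Nlrc5 0.44 ± 0.41, Cd74 -0.39 ± 0.42 and H2-Ab1 -0.11 ± 0.31. The 2 smallest p-values belonged to H2-M9, an M-region gene (-2.38 ± 1.28), and B2m (-0.33 ± 0.20), both with adjusted p = 0.955 in the edgeR test. H2-M9 had 5 reads in all CKD-vehicle libraries together, all in replicate 5, so its fold change rests on very few counts. Leaving out 1 library moved the class II median to between -0.60 (without CKD-vehicle replicate 5) and -0.25 (without sham-vehicle replicate 2). It was 0.03 with the B cell score as a covariate, which was chosen after seeing the data.

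In CKD-Oxf against CKD-vehicle, 0 members passed adjusted p 0.05, where 0.0330% of all genes did (8 genes). At unadjusted p under 0.05 there were 2 of 38 members, against 13.1% of all genes: H2-T22 and H2-M9. H2-T22, a class Ib gene of the T region, ran from 14.3 to 19.3 CPM in CKD-vehicle (median 17.1) and from 18.7 to 27 in CKD-Oxf (20.4), so the groups overlapped only between 18.7 and 19.3. Its log2 fold change was 0.36 ± 0.12, with adjusted p = 0.239 by edgeR, and by limma-voom it was 0.33 with adjusted p = 0.0426. H2-M9 had 3.49 ± 1.29 with adjusted p = 0.279 by edgeR, on the few reads described above. The class I median was 0.12, the class II median 0.40 and the median of all genes 0.03. Of class II genes 8 of 11 were above 0, against 53.2% of all genes. Without CKD-Oxf replicate 6 the class I median was 0.02, and with the circadian score as a covariate it was -0.08. The class II median was -0.27 without CKD-Oxf replicate 6, -0.31 with the 7SL share as a covariate, -0.30 with the circadian score as a covariate and -0.11 by limma-voom with sample weights.

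In sham-Oxf against sham-vehicle, 0 members passed adjusted p 0.05 and neither did any of all genes (0%). At unadjusted p under 0.05 there were 3 members, against 12.6% of all genes: B2m (-0.54 ± 0.21, adjusted p = 0.301 by edgeR), H2-M5 (1.33 ± 0.54, adjusted p = 0.308) and H2-M6-ps (1.27 ± 0.54, adjusted p = 0.329). Sham-Oxf replicate 1 was the lowest of all libraries for B2m and the highest for H2-M5 and H2-M6-ps. Without it the values were -0.35 for B2m, 0.25 for H2-M5 and 0.59 for H2-M6-ps. All 11 class II genes were above 0, against 45.1% of all genes, with a median of 0.63, while the class I median was -0.01 and ran from -0.13 to 0.11 when 1 library was left out. By limma-voom with sample weights the class II median was -0.28, and with the 7SL share as a covariate -0.48. Without sham-Oxf replicate 2 it was -0.43, and -0.45 with CKD-Oxf replicate 6 also left out, which was chosen after seeing the data.

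In CKD-Oxf against sham-Oxf, 0 members and 0% of genes passed adjusted p 0.05. The members at unadjusted p under 0.05 were H2-T9 (-0.93 ± 0.42) and H2-T24 (0.32 ± 0.15), both class Ib genes of the T region, with adjusted p of 0.557 and 0.577 by edgeR, against 8.23% of all genes. Sham-Oxf replicate 1 was again highest for H2-T9, at 2.61 CPM against at most 0.998 elsewhere, and without it the fold change was -0.12. The class I median was 0.11 and the class II median -0.56, which was 0.25 without sham-Oxf replicate 2, 0.02 with the 7SL share as a covariate and -1.06 without CKD-Oxf replicate 6. The class I median was -0.01 without CKD-Oxf replicate 6. Values above 0 were found in 16 of 24 class I genes and 0 of 11 class II genes, against 56.7% of all genes.

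The interaction of surgery and gavage was not past adjusted p 0.05 for any member, with 0% of all genes called, and 1 member (H2-M9, 3.55 ± 1.71, adjusted p = 1 by edgeR) was at unadjusted p under 0.05, against 3.55% of genes. Its value was above 0 in 17 of 24 class I genes and 4 of 11 class II genes, against 58.7% of all, and the class II median of -0.24 was 0.47 without sham-Oxf replicate 2. Averaged over gavage, surgery gave 0 members and 0% of all genes at adjusted p 0.05, and H2-T24 (0.20 ± 0.10, adjusted p = 0.470) was the 1 member at unadjusted p under 0.05, against 11% of genes. Surgery values were above 0 in 11 of 24 class I genes and 0 of 11 class II genes, against 49.9% of all. H2-DMb1, a chain of the class II loading factor H2-DM, had the next smallest p (-0.63 ± 0.33, adjusted p = 0.505 by edgeR). The H2-DMb1 value was -0.28 without sham-Oxf replicate 2 and -0.91 without CKD-Oxf replicate 6. The effect of Oxf averaged over surgery was the only contrast with many called genes (681, 2.81% of all), and 0 members were among them. At unadjusted p under 0.05 there were 7 of 38 members, against 23% of all genes. These were H2-M6-ps (1.12 ± 0.40), H2-T22 (0.23 ± 0.08), H2-T10 (0.38 ± 0.15), H2-K2 (0.45 ± 0.18), H2-Ob (1.11 ± 0.48), B2m (-0.33 ± 0.15) and Ciita (0.61 ± 0.30), with the smallest adjusted p at 0.102 by edgeR. B2m was the 1 of these that was lower with Oxf. Without sham-Oxf replicate 2 the value was 0.36 for Ciita and 0.50 for H2-Ob. Without sham-Oxf replicate 1 it was 0.78 for H2-M6-ps, 0.26 for H2-T10, 0.36 for H2-K2 and -0.24 for B2m. The H2-T22 value stayed between 0.20 and 0.25 when 1 library was left out. The class II median of this averaged effect was 0.51, and the class I median was 0.06, which was 0.02 without CKD-Oxf replicate 6, -0.08 with the 7SL share and -0.14 with the circadian score. The class II value was below 0 in several fits that weighted, adjusted for or left out libraries. It was -0.11 without sham-Oxf replicate 2, -0.14 by limma-voom with sample weights, -0.05 with the circadian score, -0.01 with the B cell score, -0.45 with the 7SL share and -0.35 without the 2 libraries richest in B cell markers. All 11 class II genes and 17 of 24 class I genes were above 0, against 50.4% of all genes. The class II median averaged over gavage for surgery was -0.44, and 0.02 without sham-Oxf replicate 2. Comparisons that involve the same group share its mice and are not independent.

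**Figure D3:**
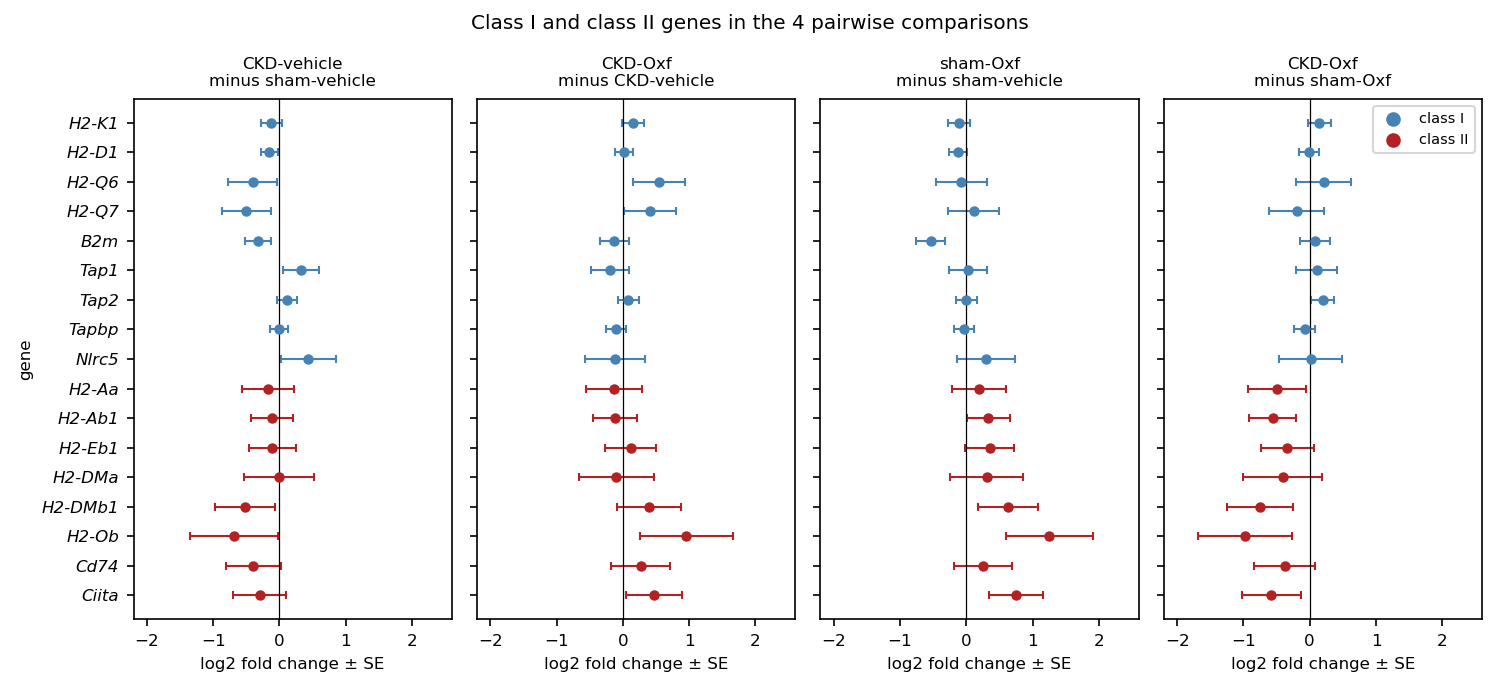
Log2 fold changes with standard errors for 9 class I and 8 class II genes in the 4 pairwise comparisons. The class I gene H2-K1 lies close to 0 with short bars, and the class II gene H2-Ob lies farther out with longer bars, but the classes overlap. In CKD-Oxf against CKD-vehicle the SE was 0.45 for Nlrc5 and 0.39 for H2-Q7 of class I. It was 0.33 for H2-Ab1, 0.44 for Cd74 and 0.71 for H2-Ob of class II.

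Class I and class II genes differed in which libraries were highest. All 11 tested class II genes had their highest value in sham-Oxf replicate 2 and their second highest in CKD-Oxf replicate 6. H2-Eb2 had a median of 1 read and none in 11 libraries, and H2-Oa a median of 2.5 and none in 5. Both passed the count filter only through libraries where they were high, so their part in the counts of 11 here and below is partly set by the filter. The class I genes H2-M9 and H2-M2 were as low, with medians of 1.5 and 2 reads. Of the 24 class I genes 1 (H2-Q7) had this order, and 4 (H2-Q5, H2-Q10, H2-Bl and H2-M2) had the same pair of libraries in the reverse order. The highest library of the 24 class I genes was CKD-Oxf replicate 6 for 7, sham-Oxf replicate 1 for 5, and CKD-vehicle replicate 4 and sham-vehicle replicate 3 for 3 each. The 2 libraries were also the highest for the B cell gene Cd79a, a part of the B cell receptor, at 18.1 and 11.8 CPM, with at most 7.76 in the others. Summed T and NK cell markers (8 genes, of which 6 were tested) also had their 2 highest values there, at 16.8 CPM in sham-Oxf replicate 2 and 11 in CKD-Oxf replicate 6, against at most 8.83 in sham-vehicle and 7.00 in CKD-vehicle. The part of B cell, T cell or NK cell RNA in the class II values was not tested.

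Correlations across the 28 mice were computed on deviations from group means, with p-values from permutations within groups. Over 8 pairs, H2-K1 followed Nlrc5 (Pearson r = 0.561, permutation p = 0.00053, adjusted p = 0.00424; Spearman rho = 0.668, p = 0.00016, adjusted 0.00128), and without the 2 libraries farthest from the median of Nlrc5 r was 0.535. Within groups r was 0.697 in sham-vehicle, 0.708 in CKD-vehicle and 0.750 in CKD-Oxf. H2-Ab1 followed Ciita (r = 0.620, permutation p = 0.0018, adjusted p = 0.0072; rho = 0.534, p = 0.00561, adjusted 0.0224), and r was 0.402 without the 2 farthest libraries. H2-K1 and H2-Ab1 had r = 0.324 with permutation p = 0.14 and adjusted p = 0.256 (rho = 0.295, p = 0.174). H2-Ab1 against the macrophage gene Csf1r gave r = 0.288 with permutation p = 0.16 and adjusted p = 0.256, and H2-K1 against the endothelial gene Pecam1 gave r = -0.0969 with permutation p = 0.658. H2-Ab1 against Cd79a gave r = 0.507 with permutation p = 0.0357 and adjusted p = 0.0953 (rho = 0.343, adjusted 0.236). Its r was 0.225 without the 2 farthest libraries. Against Dbp, r was 0.231 for H2-K1 (permutation p = 0.222) and 0.101 for H2-Ab1 (permutation p = 0.508).

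The same was done for each of the 38 tested members against Nlrc5, Cd79a, the circadian output gene Dbp and the 7SL share, a family of 151 relations chosen after seeing the data. With Nlrc5, 13 of the other 23 class I genes passed by both r and rho at adjusted permutation p under 0.05, all positive, and 2 of 11 class II genes (Ciita and H2-DMb1). Tap1 had the highest r, 0.874 (adjusted permutation p = 9.44e-05; rho = 0.889, and r = 0.835 without the 2 farthest libraries), ahead of H2-Q5 (0.845) and H2-Q7 (0.838). B2m (r = 0.00101), H2-T23 (0.105) and Tapbp (-0.323) did not pass. With Cd79a, 10 of 11 class II genes passed by both measures and all were positive, against 3 positive (H2-M9, H2-M2 and H2-Q10) and 1 negative (H2-Q1) of 24 class I genes. H2-DMb2 had the highest r, 0.960 (adjusted permutation p = 9.44e-05; rho = 0.894, and 0.941 without the 2 farthest libraries), and Cd74 had r = 0.822 (adjusted permutation p = 9.44e-05; rho = 0.699, and 0.730 without them). H2-Ab1, with r = 0.507 and adjusted permutation p = 0.0915 (rho = 0.343), was the class II gene that did not pass, and its r was 0.225 without the 2 farthest libraries. With Dbp, 0 members passed. With the 7SL share, 9 of 11 class II genes passed and were negative, and of 24 class I genes 6 were negative and 2 positive. Cd79a itself ran against the 7SL share (r = -0.814, permutation p = 1e-05, the smallest these permutations can give; rho = -0.812, and -0.849 without the 2 farthest), so the B cell and 7SL readings move together. Their parts in the class II values cannot be told apart by these relations. Many other genes followed the same references. With r and rho both at least 0.5, a limit chosen after seeing the data, 20.4% of all tested genes went with Cd79a, against 10 of 11 class II and 3 of 24 class I genes. With Nlrc5 it was 9.7% of all genes, against 11 of 23 class I and 1 of 11 class II genes. With both at or below -0.5, 20.8% of all genes ran against the 7SL share, against 9 of 11 class II and 5 of 24 class I genes.

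**Figure D4:**
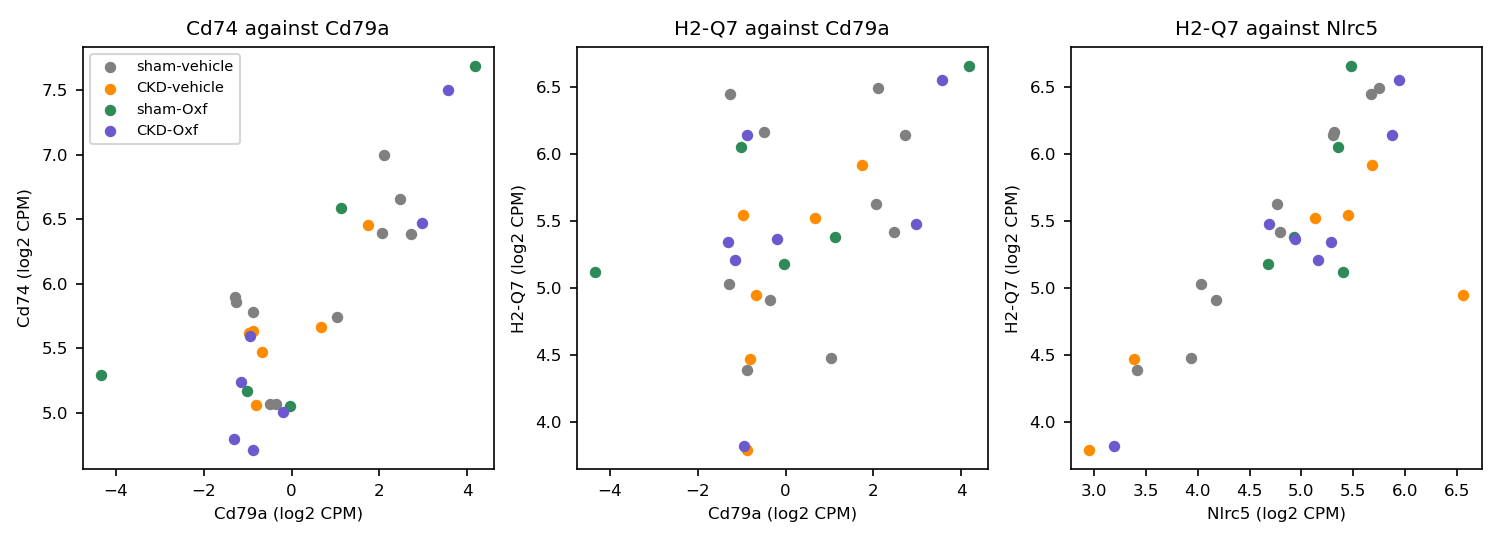
Log2 CPM in each of the 28 libraries, coloured by group, of Cd74 and H2-Q7 against Cd79a, and of H2-Q7 against Nlrc5. Cd74 rises with Cd79a toward sham-Oxf replicate 2 and CKD-Oxf replicate 6, while H2-Q7 rises with Nlrc5 in all groups, with CKD-vehicle replicate 4 off to the right.

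**Figure D5:**
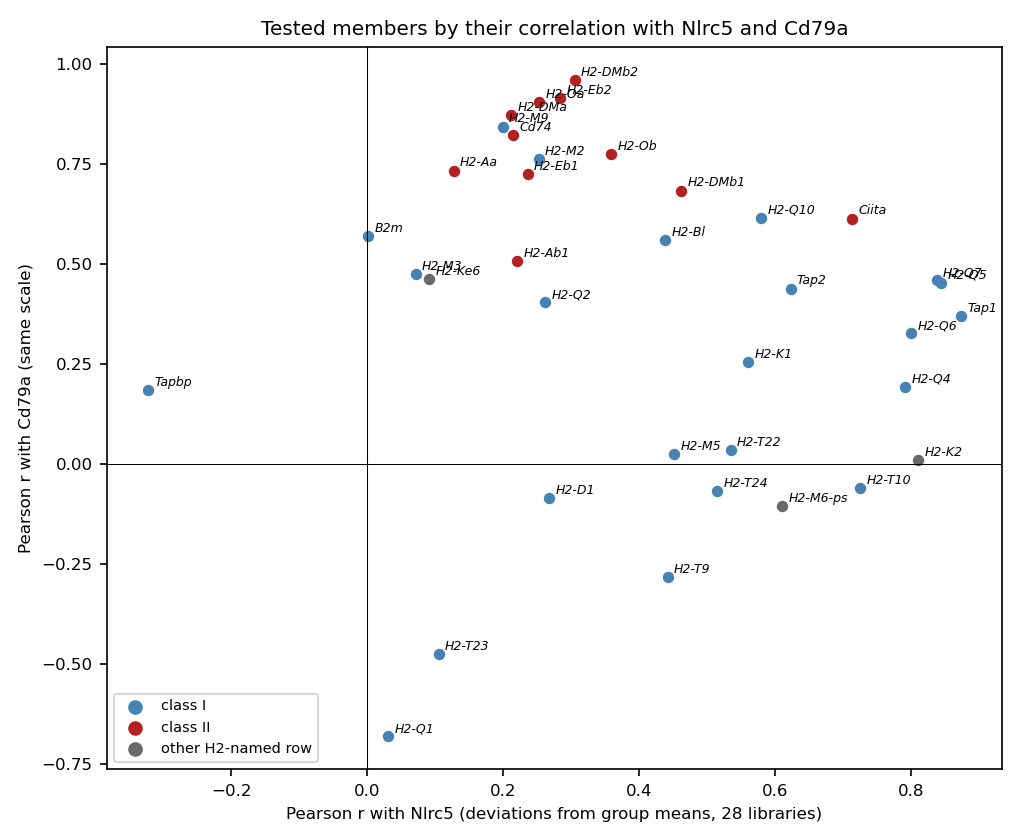
Pearson r of each tested member with Nlrc5 (horizontal) and with Cd79a (vertical), over deviations from group means in 28 libraries; Nlrc5 itself is left out. Class II genes occupy the upper part, with H2-DMb2 highest at 0.960, and class I genes such as Tap1 (0.874) the right.

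Beyond the members, 45 genes of 7 further lists in antigen processing were tested: the immunoproteasome, chaperones and peptide loading in the endoplasmic reticulum, the class II endosome, RFX and NF-Y factors, interferon gamma signalling, costimulation, and CD1 and MR1. In the effect of Oxf averaged over surgery 2 of 45 passed adjusted p 0.05, against 2.81% of all genes. The chaperone gene Hsp90b1 fell by 0.53 ± 0.11 on the log2 scale (adjusted p = 0.0193 by edgeR), and the costimulatory ligand gene Icosl rose by 0.49 ± 0.13 (adjusted p = 0.0427). Hsp90b1 ran from 88.6 to 207 CPM in sham-vehicle and from 113 to 165 in CKD-vehicle, against 76.6 to 128 in CKD-Oxf and 92.0, 100, 119, 83.8 and 86.8 in sham-Oxf, so the groups overlapped. With the circadian score as a covariate its value was -0.45 (adjusted p = 0.567), and that of Icosl 0.12 (adjusted p = 0.901). The Icosl call was lost in 17 of the 28 fits that left out 1 library and in 4 of 10 other alternatives, and without sham-Oxf replicate 2 the value was 0.40 (adjusted p = 0.0844 by edgeR). The Hsp90b1 call was lost in 0 of the 28 and 3 of the 10. Of the 7 genes in the endoplasmic reticulum list all had a value below 0 in this contrast, where 50.4% of all genes were above 0, and 6 had an unadjusted p under 0.05, against 23% of all genes. The other was Tapbpl (-0.17 ± 0.26). The list includes the general chaperone genes Hsp90b1 and Hspa5, and a change in antigen loading itself was not tested. Of these 7, Hsp90b1 alone passed the adjusted threshold. In the 6 other contrasts 0 of the 45 passed; the smallest p belonged to Hspa5 (0.57, CKD-vehicle against sham-vehicle), Hsp90b1 (-0.58, CKD-Oxf against CKD-vehicle), Nfyb in 3 contrasts and Icosl (-0.37, surgery).

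Many class I genes are close copies, so their counts are uncertain in part. At least 10% of the 50-base stretches of the exons occur in another gene for 12 of 24 tested class I genes and 2 of 11 class II genes (H2-DMb1 at 27.2% and H2-DMb2 at 29.5%). The share was 14.3% for H2-D1, 8.11% for H2-K1, 28.4% for H2-Q7, 35.8% for H2-T22 and 60.8% for H2-T9, against 0% for B2m, Nlrc5, Cd74 and Ciita. H2-Q5, at 35.4%, shares stretches with H2-Q7, so their correlations with Nlrc5 may not be independent. H2-T22 and H2-T10 (31.6%) also share stretches with each other, so their fold changes may not be independent. H2-Q5, H2-T10 and H2-Bl are annotated as polymorphic pseudogenes. Tap1 overlaps an exon of Psmb9 on the other strand, Ciita one of Dexi and H2-DMa one of Brd2, and whether the counting used strand is not given in the sources used here.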

How the data were processed

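The authors deposited 1 table of gene counts, not normalized, with 45513 rows, whole numbers and totals that differ between libraries. The submitters' processing notes name STAR 2.6.1d, featureCounts 1.6.3 of the Subread package, FastQC 0.11.7, MultiQC 1.9 and the mm10 build, and the annotation and the use of strand are not given in the sources used here. Counts were analysed in R 4.3.3 with edgeR 4.0.16: TMM factors, filterByExpr by group with a minimum count of 10 (24273 genes left), and the robust quasi-likelihood fit of 4 group means over 28 libraries. A result was called at Benjamini-Hochberg adjusted p under 0.05 over all genes tested. Contrasts numbered 7: 4 between groups that share surgery or gavage, the interaction, and both factors averaged over the other. Standard errors are the fold change over the root of the F statistic. CPM is after TMM factors, and log2 CPM used a prior count of 2. The fit was also run on simulated counts with 200 genes changed in CKD-Oxf. These were drawn for each gene independently and held no library like sham-Oxf replicate 1 or those rich in B cell markers. The outcome is not given here. The p-values measure the spread between mice. No 2 libraries held identical columns.

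Correlations used deviations from group means and 100000 permutations within groups. Positions and exon lengths came from GENCODE M21, and promoters from RefSeq (GRCm38.p6). Alternatives were limma 3.58.1 (voom), DESeq2 1.42.0, other scaling and filters, covariates and leaving out each mouse. Genes were named by identity (H2-K1, H2-D1, B2m, Tap1, Tap2, Tapbp, Nlrc5, H2-Aa, H2-Ab1, H2-Eb1, H2-DMa, H2-DMb1, Cd74, Ciita), plus the 2 members and the 1 pathway gene of smallest p per contrast or those called; other names were chosen after their values were seen. The members and lists were chosen with earlier results of these data known. The B cell list and score hold 5 genes, and 1 further marker is not reported here.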

Additional observations from a re-analysis of the deposited data

Results flagged for a closer look

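H2-Ab1 in CKD-Oxf had 1 mouse far from the rest: the gap from CKD-Oxf replicate 6 (log2 CPM 5.59) to the next mouse (4.34) was 0.593 of the range of the 7 mice, past Dixon's 95% limit. It was 1 of 68 such comparisons, where chance gives about 1 in 20, or 3.4. The same mouse was second highest for all 11 tested class II genes and second highest for Cd79a (11.8 CPM), and the part of B cells in it was not tested.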

How the results depend on the processing

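No member was called in CKD-vehicle minus sham-vehicle, sham-Oxf minus sham-vehicle, CKD-Oxf minus sham-Oxf, the interaction or the surgery average under any alternative run. In CKD-Oxf minus CKD-vehicle limma-voom called 1 (H2-T22, 0.33, adjusted p = 0.0426). In the Oxf average the B cell score as covariate, added after seeing the data, called 1 (H2-Ob, 0.94, adjusted p = 0.0311), limma-voom called 2 (B2m -0.40, adjusted p = 0.0144, and H2-T22 0.26, adjusted p = 0.0196), and leaving out 1 mouse gave 0 to 3 (3 without CKD-Oxf replicate 4: H2-T10, H2-M6-ps and H2-K2). The share of all genes called in these same fits is not given here, so the calls cannot be read as particular to the members. The class II median of sham-Oxf minus sham-vehicle (0.63) was -0.4827 with the 7SL share as covariate, -0.4477 with both B-cell-richest libraries left out, and -0.431 to 0.8704 when 1 mouse was left out. The cause was not tested. Of the values of single genes under alternatives, 841 stayed on the same side of the threshold, 10 gained and 24 lost the call, and 0 changed sign while called. Only Hsp90b1 and Icosl in the Oxf average were called in the main fit, so only these could lose a call. Icosl lost it in 21 fits and Hsp90b1 in 3, each over 28 fits without 1 library and 10 other alternatives. Most of the 841 were genes that were not called in either fit. No paired analysis was possible because each mouse number occurs in 1 group only. Depth limits the lowest genes: H2-M9 had no read in 13 libraries. With 5 to 10 mice a group and a class II spread of 1.02, small class II differences could not be detected.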

Other observations

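The class Ib genes did not all follow Nlrc5 or Cd79a. H2-Q1 ran against Cd79a (r = -0.681, adjusted permutation p = 0.00444; rho = -0.690, and -0.734 without the 2 farthest libraries) and with the 7SL share (r = 0.633, adjusted permutation p = 0.000788; rho = 0.754). H2-T23, which presents signal-sequence peptides to natural killer cell receptors, did likewise with the 7SL share (r = 0.538, adjusted permutation p = 0.0162; rho = 0.550). Sham-Oxf replicate 1 was the highest library for H2-Q1 (8.02 CPM), H2-T23 (44.6), H2-T9 (2.61), H2-T10 (13.4) and H2-M5 (2.61), although it had counts for only 15879 genes.

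Members not tested were 10 of class I, 1 of class II (H2-Ea-ps, with at most 7 reads in any library and 0 in 25 of 28) and 2 other rows.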
